A study of Mus musculus with 172 samples.

Results

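Primitive endoderm (PrE) is the layer that lines the blastocyst cavity and later forms the yolk sac endoderm, and 9 genes that mark its formation were followed in inner cell mass (ICM) cells with and without OCT4. They were selected by symbol from the 49671 genes counted: the transcription factor genes Gata6, Gata4, Sox17, Sox7, Foxa2, Hnf4a and Tfec, the receptor gene Pdgfra, and Gas6, which encodes a secreted protein. Mouse ICMs came from inter se mating of Pou5f1 heterozygotes on a mixed background, were freed of trophectoderm (TE) by immunosurgery and genotyped from that lysate, and were dissociated for Smart-seq2, which reads whole transcripts of single cells. At E3.5 there were 58 cells from 7 control embryos, 5 WT and 2 HET, and 29 cells from 4 MUT embryos, which lack a functional Pou5f1 allele. At E4.5 there were 66 cells from 6 control embryos, 2 WT and 4 HET, and 19 cells from 2 MUT embryos. The authors divided the E4.5 control cells by their own transcriptomes into 37 epiblast (EPI) and 29 PrE cells, so every difference between these 2 classes in the 9 genes is a description and was not tested.

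In the blastocyst, GATA6 and NANOG are first present in the same ICM cells, and FGF4 signalling through ERK favours GATA6 and silences NANOG in the cells that become PrE. PDGFRA, SOX17 and GATA4 then follow GATA6, and SOX7 appears once PrE cells have sorted to the cavity surface. FOXA2 and HNF4A are general endoderm regulators that act in the visceral endoderm, TFEC belongs to the MITF family, and GAS6 is the ligand of the AXL, TYRO3 and MERTK receptors.

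The targeted gene matched the labels. Pou5f1, which encodes OCT4, had 192 to 428 CPM, its counts scaled to a common total of counts in genes, in the summed cells of the E3.5 control embryos, with a median of 273 CPM. It had 4.61, 3.39, 2.65 and 4.31 CPM in the E3.5 MUT embryos and 0 counts in both E4.5 MUT embryos. Counts in genes ranged from 363819 to 4644070 per cell and from 2736296 to 17453036 per embryo sum. All E3.5 cells were on another plate than all E4.5 cells, and the effects of stage and plate cannot be told apart. A list of 20 TE marker genes summed to 1221 to 2713 CPM in E3.5 MUT embryos against 333 to 1206 CPM in controls, and to 11804 and 12293 CPM in the E4.5 MUT embryos against 635 to 2079 CPM in control ICMs. TE genes thus moved with genotype beside every comparison of MUT with controls below. Within controls the same list summed to 2030 to 2836 CPM in PrE and 335 to 647 CPM in EPI. Its part in these results was not tested.

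In control ICMs at E3.5 the 9 genes formed a graded series by the share of cells with a count. Gata6 was detected in all 58 cells, Hnf4a in 45 (77.6%, exact 95% interval 64.7 to 87.5%), Pdgfra in 33 (56.9%, 43.2 to 69.8%), Gas6 in 21 (36.2%, 23.99 to 49.9%), Gata4 in 14 (24.1%, 13.9 to 37.2%) and Sox17 in 7 (12.1%, 4.99 to 23.3%). Tfec was detected in 2 cells, Sox7 in 1 and Foxa2 in 0 of 58, which allows a share of up to 5.17%, taking 3 cells as the limit for a count of 0. The intervals of neighbours in this order overlap from Hnf4a downwards, so only steps further apart, such as Hnf4a against Gas6 or Pdgfra against Gata4, are separated by them. These intervals and limits cover counting error only, and cells of an embryo are not independent. Among E4.5 PrE cells, Gata6, Pdgfra, Gata4 and Sox17 were each detected in all 29, Sox7 and Gas6 in 28, Tfec and Foxa2 in 21 and Hnf4a in 16. In EPI cells the same genes were detected in 2 (Gata6, Pdgfra, Hnf4a and Tfec), 5 (Gata4), 10 (Sox17 and Gas6), 4 (Sox7) and 1 (Foxa2) of 37. With cells thinned to 685540 counts and 5 shallower control cells left out, the E3.5 control shares were 100% for Gata6, 77.4% for Hnf4a, 52.8% for Pdgfra, 32.1% for Gas6, 22.6% for Gata4 and 13.2% for Sox17. At 10 CPM or more these genes, in the same order, were in 57, 37, 24, 11, 4 and 3 of the 58 E3.5 control cells.

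**Figure D1:**
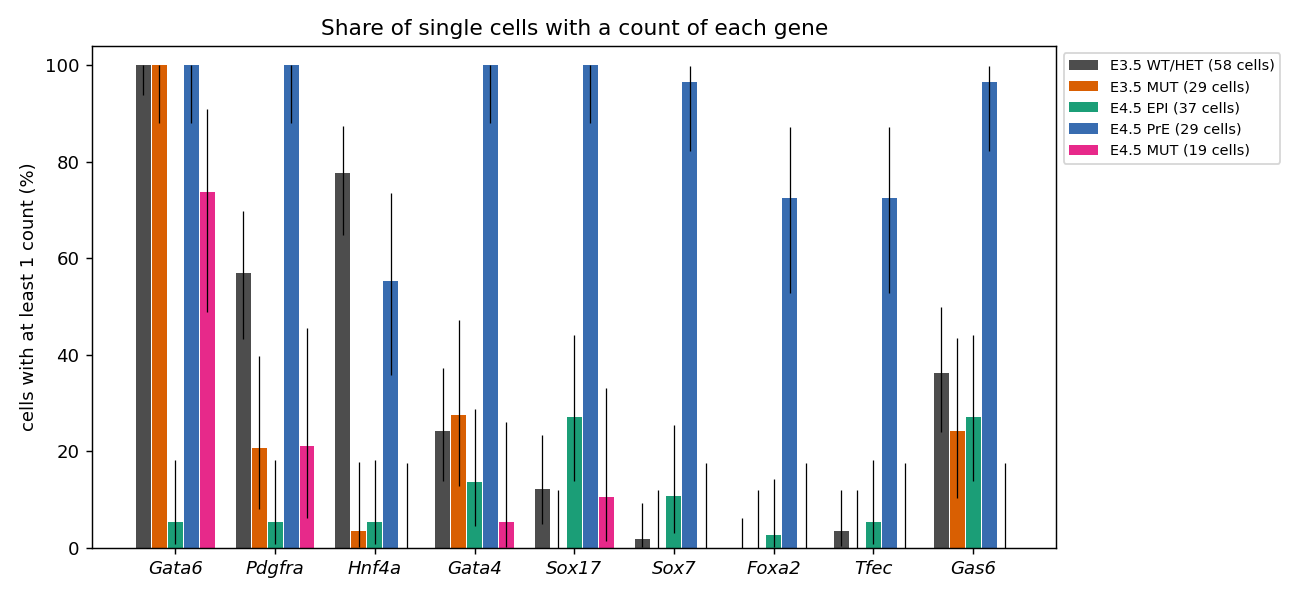
Share of single cells with at least 1 count of each gene (vertical axis, percent) in the 5 classes; bars start at 0 and lines are exact 95% binomial intervals. The bars for E4.5 MUT fall from 73.7% for Gata6 to 21.1% for Pdgfra, 10.5% for Sox17 and 5.26% for Gata4, and stand at 0 for the other 5 genes.

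Levels per transcript length gave a like order. In FPKM, which divides CPM by exon length (mean ± SD over 7 embryo sums), E3.5 controls had 16.96 ± 8.11 for Gata6, 4.88 ± 2.59 for Hnf4a, 2.004 ± 1.73 for Gas6, 1.995 ± 2.12 for Pdgfra, 0.42 ± 0.40 for Gata4 and 0.40 ± 0.56 for Sox17. Gas6 and Pdgfra, and likewise Gata4 and Sox17, differed by less than their spread. In PrE the order of FPKM was different: Sox7 at 55.0 ± 20.0, Gata4 at 53.7 ± 22.99, Sox17 at 51.2 ± 23.9, Gas6 at 46.2 ± 18.3, Tfec at 37.0 ± 29.4, Gata6 at 28.8 ± 7.07, Pdgfra at 17.99 ± 5.94, Foxa2 at 17.2 ± 9.59 and Hnf4a at 4.80 ± 5.57 (n = 6 embryos). The ranges of 1 SD around neighbours in this order overlap throughout. Gata6, the highest of the 9 genes at E3.5, was thus the sixth in PrE.

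Whole control ICMs changed between the stages in 7 of the 9 genes, all higher at E4.5 (edgeR quasi-likelihood test, adjusted p under 0.05; 18.4% of the 11860 genes tested were called higher). In the summed cells of an embryo, fewer cells of a type and less RNA per cell cannot be told apart. Gata4 rose from 0.00 to 3.87 CPM (median 1.00) in 7 E3.5 embryos to 17.6 to 190 CPM (median 114) in 6 E4.5 ICMs, a log2 fold change of 5.88 ± 0.79 (SE, adjusted p = 4.2e-05). Sox17 rose by 5.89 ± 0.99 on the log2 scale (adjusted p = 0.000273), from 0 to 7.39 CPM to 16.3 to 228 CPM, and its ratio of shares of 55.6-fold was 101-fold without control embryo 11. Sox7 and Tfec had 7 and 15 counts in all E3.5 control cells, and their shares of counts were 1059-fold and 658-fold higher at E4.5. Foxa2 had none at E3.5 and was at least 599-fold higher, with 3 counts set as the lowest group total. Every such bound, here and below, covers the counting of reads only and not the sampling of cells or embryos. Without control embryo 13 Sox7 had no E3.5 count and was at least 2227-fold higher, and Tfec had 3 counts, while the Foxa2 bound is 391-fold without control embryo 2. For these 5 genes and Gas6 every E4.5 ICM was above every E3.5 embryo, as in 11.2% of all genes tested.

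Gas6 rose by 3.56 ± 0.65 (SE) on the log2 scale (adjusted p = 0.000569), with 0.27 to 13.7 CPM at E3.5 and 29.4 to 129 CPM at E4.5. Pdgfra, the receptor for PDGF ligands, overlapped between stages at 2.20 to 55.6 CPM (median 9.49) against 24.2 to 147 CPM (median 82.2), a log2 fold change of 1.92 ± 0.64 (adjusted p = 0.0290). That call is lost without any of embryos 1, 9, 15, 16 or 18 (adjusted p 0.0529 to 0.0676), with cells weighted equally by limma-trend (0.402) and with WT embryos alone (0.453). Gata6 and Hnf4a did not pass in edgeR with all embryos: Gata6 was 24.01 to 191 CPM (median 124) and then 29.7 to 151 CPM (median 88.7), and Hnf4a was 7.79 to 40.4 CPM (median 23.4) and then 0.32 to 49.2 CPM (median 6.93). With WT embryos alone, 5 at E3.5 and 2 at E4.5, the calls of Gata4, Sox17 and Gas6 were lost beside Pdgfra (adjusted p 0.0591, 0.0955 and 0.0831). Among E4.5 ICMs Gata4 was 17.6 and 39.7 CPM in the WT embryos and 90.0 to 190 CPM in the HET embryos. Gata6 was 29.7 and 62.2 CPM against 85.1 to 151 CPM, and the other genes overlapped. The mix of WT and HET thus differed between stages, and its part was not tested. Those of Sox7, Foxa2 and Tfec stayed in this fit, whose share over all genes is not given here. With each cell weighted equally (limma-trend on mean log2(CPM + 1)) Gata6 and Hnf4a passed as lower at E4.5, with log2 differences of -3.05 and -2.36 (adjusted p = 3.33e-05 and 0.00101), and Hnf4a also passed by edgeR without control embryo 2 (-1.97, adjusted p = 0.0427).

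The E3.5 control embryos were not alike in Pdgfra. Embryos 11 and 13 had 45.3 and 55.6 CPM and Pdgfra counts in 7 of 7 and 8 of 10 cells, while the other 5 embryos had 2.20 to 12.1 CPM. The same embryos held the only Tfec counts of the stage (0.21 and 1.39 CPM), and embryo 13 the only cell with Sox7 counts (0.81 CPM in the sum). Sox17 was highest in embryo 11 at 7.39 CPM, in 3 of 7 cells, and at 0 in embryos 9, 13 and 18.

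PrE and EPI sums of the same embryos stood apart in every gene but Hnf4a. Of the 12284 genes with a mean of 1 CPM or more over these sums, 3.52% were higher in PrE without overlap. Gata6 was 131 to 238 CPM in PrE and 0 to 3.73 CPM in EPI, Gata4 was 99.4 to 303 against 0 to 0.87 CPM, and Pdgfra was 85.7 to 246 against 0 to 4.07 CPM. Sox17 was 81.9 to 378 against 0 to 10.6 CPM, Sox7 was 106 to 296 against 0 to 7.96 CPM, Foxa2 was 13.5 to 79.7 against 0 to 1.47 CPM, and Tfec was 47.5 to 413 against 0 to 8.27 CPM. Gas6 was 64.2 to 187 CPM in PrE and 0 to 30.3 CPM in EPI, a ratio of shares of 8.65-fold (15.7-fold without embryo 5). Hnf4a overlapped, at 1.83 to 75.4 CPM in PrE and 0 to 10.1 CPM in EPI, with a ratio of 12.4-fold (5.21-fold without embryo 2). Without embryo 5 a single EPI count of Hnf4a is left, and no ratio is given. Of the EPI counts, 99.3% for Hnf4a, 98.4% for Tfec and 98.4% for Pdgfra came from a single cell each, all in embryo 5.

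**Figure D2:**
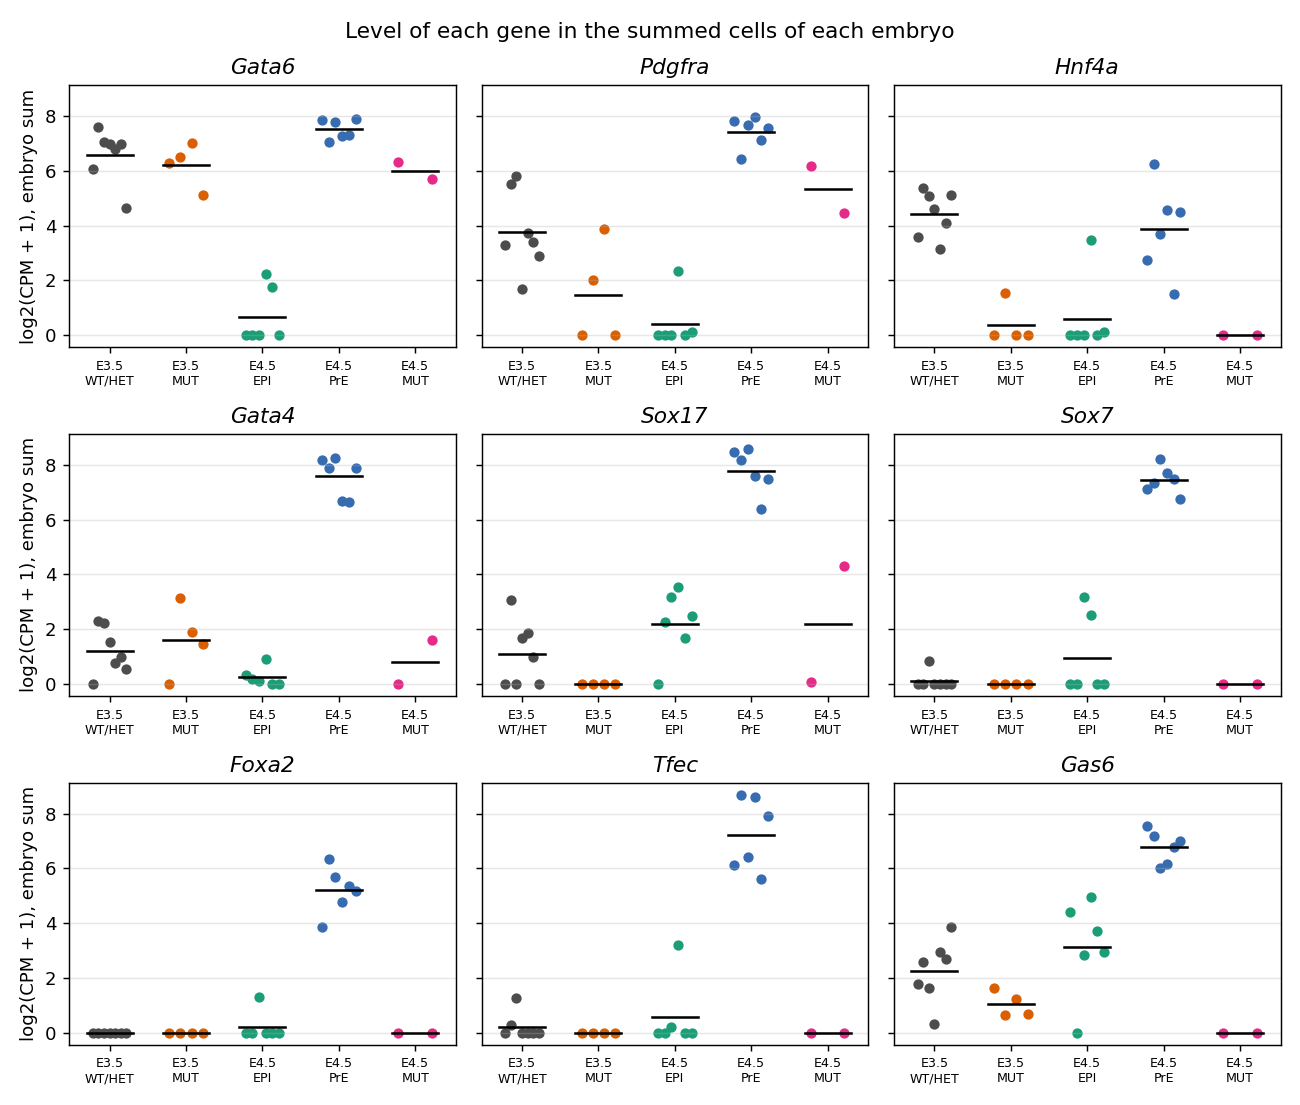
Level of each gene in the summed cells of each embryo, as log2(CPM + 1), by class; each point is an embryo and each black line the mean of the log values. Gata6 in MUT embryos lies among the E3.5 controls at both stages (33.3 to 127 CPM at E3.5, 51.0 and 78.3 CPM at E4.5), while Sox7, Foxa2, Tfec, Hnf4a and Gas6 lie at 0 in both E4.5 MUT embryos.

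At E3.5 MUT ICMs had Gata6 within the control range and less Hnf4a. Of the 9 genes 6 had enough counts to be tested and 1 was called, Hnf4a, lower (2.98% of the 12075 genes tested were called lower). Hnf4a was at 0, 1.91, 0 and 0 CPM in MUT embryos 10, 12, 17 and 19 against 7.79 to 40.4 CPM in 7 controls, with no overlap, as in 4.8% of all genes tested. Its log2 fold change was -5.39 ± 1.15 (SE, adjusted p = 0.0162), it was called in 16 of 16 alternative fits (adjusted p 6.63e-07 to 0.0348), and 1 of 29 MUT cells had any count against 45 of 58 control cells. The ratio of shares of counts was 35.6-fold, and at least 215-fold without MUT embryo 12, which held that cell, while the log2 fold change was -3.42 to -11.07 over the alternatives. The -11.07 is from the fit without embryo 12, where MUT has no count and the size depends on the prior count. Gata6 was 76.7, 89.6, 127 and 33.3 CPM in MUT embryos, inside the control range of 24.01 to 191 CPM, and was detected in 29 of 29 cells (log2 fold change -0.29 ± 0.44, adjusted p = 0.769).

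Pdgfra was 0, 3.04, 13.8 and 0 CPM in the E3.5 MUT embryos and overlapped the controls at 2.20 to 55.6 CPM (log2 fold change -2.19 ± 1.27, adjusted p = 0.356). Its counts were in 6 of 29 MUT cells, from embryos 12 and 17, and in 33 of 58 control cells, of which embryos 11 and 13 held 7 and 8. Without MUT embryo 17 the difference was -4.13. Gata4 was 0, 7.77, 2.74 and 1.72 CPM in MUT embryos against 0 to 3.87 CPM, a log2 fold change of 0.96 ± 1.19 (adjusted p = 0.715) that was -0.048 without embryo 12. Sox17 had 0 counts in the MUT embryos and 195 in the controls, where 3 of 7 embryos also had none. It did not pass (adjusted p = 0.120, and 0.0330 to 0.282 over alternatives). By reads alone the bound on its share of counts was 31.99-fold lower, and 17.6-fold without control embryo 11, which held 105 of the 195 counts. By cells no such difference is set: 7 of 58 control cells (12.1%) had Sox17, and 0 of 29 MUT cells allows up to 10.3% by the limit of 3 cells. Gas6 was 0.57 to 2.14 CPM in MUT embryos and 0.27 to 13.7 CPM in controls (log2 fold change -1.93 ± 0.92, adjusted p = 0.249). Sox7, Foxa2 and Tfec were at 0 counts in MUT and at 7, 0 and 15 counts in controls, and were not tested.

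At E4.5 Gata6 and Pdgfra were counted in 14 and 4 of 19 MUT cells and each of the other genes in at most 2. Against whole control ICMs, which do not depend on the lineage labels, 5 of 9 genes were called, all lower (4.27% of the 14105 genes tested were called lower). Sox7, Gas6, Foxa2 and Tfec had 0 counts in both MUT embryos, with adjusted p of 0.00136, 0.00214, 0.0105 and 0.0150. By reads alone, with the MUT total set to 3 counts, the bounds on their shares of counts were 828-, 588-, 200- and 1102-fold lower. By cells the limits are far wider: these genes were counted in 32, 38, 22 and 23 of 66 control cells. A count of 0 in 19 MUT cells allows up to 15.8% by the limit of 3 cells. The control ICMs had 31.8 to 139 CPM of Sox7, 29.4 to 129 CPM of Gas6, 7.00 to 52.0 CPM of Foxa2 and 8.43 to 269 CPM of Tfec. Gata4 was 0 and 2.02 CPM in MUT embryos 3 and 8 against 17.6 to 190 CPM, a log2 fold change of -6.73 ± 1.57 (adjusted p = 0.0321). Its ratio of shares was 117-fold, 49.3-fold without MUT embryo 3 and at least 564-fold without MUT embryo 8, which held all its MUT counts. Hnf4a was also at 0 in both MUT embryos and at 0.32 to 49.2 CPM in the controls, and did not pass (adjusted p = 0.0595). Its bound by reads alone was 149-fold lower, while by cells it was counted in 18 of 66 control cells (27.3%), beside the MUT limit of 15.8%. Hnf4a passed with DESeq2 (1.73e-05), which called 6 of the 9 genes and 2736 of 12911 genes tested, and without control embryo 6 (0.0319). Control embryo 2 held 1007 of its 1694 control counts, and the bound is 74.0-fold without that embryo. Without control embryo 2 the Foxa2 bound is 131-fold. With MUT embryo 8 alone the bounds for Sox7, Gas6, Foxa2, Tfec and Hnf4a are 349-, 248-, 84.5-, 465- and 62.8-fold, and with MUT embryo 3 alone 479-, 340-, 116-, 637- and 86.2-fold, since fewer MUT counts stand behind the 0.

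Gata6, Pdgfra and Sox17 were not called at E4.5. Gata6 was 78.3 and 51.0 CPM in the MUT embryos against 29.7 to 151 CPM in control ICMs (log2 fold change -0.39 ± 0.52, adjusted p = 0.729), and its sign turned in 2 alternatives (0.24 with cells weighted equally, 0.55 with the 2 WT embryos alone). Pdgfra was 71.9 and 20.9 CPM against 24.2 to 147 CPM (log2 fold change -0.78 ± 0.66, adjusted p = 0.530; -1.94 without MUT embryo 3 and -0.16 without MUT embryo 8). Sox17 was 0.06 and 18.9 CPM against 16.3 to 228 CPM (log2 fold change -3.72 ± 1.56, adjusted p = 0.202). Without MUT embryo 8 a single MUT count of Sox17 is left and no fold is given. Over all alternatives the adjusted p of Sox17 was 0.0141 to 0.701. The calls rest on few embryos: Gata4 is lost without control embryos 2, 4 or 7 or MUT embryo 3 (adjusted p 0.0571 to 0.0948, and 6.65e-08 to 0.363 over all alternatives), Tfec without MUT embryo 3 or 8 (0.0829 and 0.0615), Foxa2 without MUT embryo 3 (0.0563), Foxa2 and Tfec with cells weighted equally by limma-trend (0.0549 and 0.0881, where Sox17 passed at 0.0141), and all 5 with the 2 WT embryos as the only controls (0.0939 to 0.363).

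Against PrE sums the same 5 genes were called lower (2.07% of the 12246 genes tested were called lower), and the choice of PrE cells by their transcriptomes raises the control side of this comparison. Every MUT embryo was below every PrE sum in all 9 genes, as in 8.36% of all genes tested, and this too is shaped by the choice of PrE cells. Gata6 was 78.3 and 51.0 CPM against 131 to 238 CPM (log2 fold change -1.49 ± 0.36, adjusted p = 0.0554), and Pdgfra was 71.9 and 20.9 CPM against 85.7 to 246 CPM (-1.91 ± 0.57, adjusted p = 0.0937). With cells weighted equally by limma-trend both passed, at -3.68 (adjusted p = 0.00105) for Gata6 and -5.63 (adjusted p = 0.000235) for Pdgfra, and the median cell had 6.38 CPM of Gata6 in MUT and 190 CPM in PrE. Sox17 was 0.06 and 18.9 CPM against 81.9 to 378 CPM (-4.67 ± 1.49, adjusted p = 0.119), and Gata4 was -7.71 ± 1.39 (adjusted p = 0.0154). Sox7, Gas6, Foxa2 and Tfec, at 0 in MUT, had adjusted p of 0.000177, 0.000500, 0.00483 and 0.00719, and Hnf4a, at 0 against 1.83 to 75.4 CPM, did not pass (adjusted p = 0.0507). Hnf4a passed in 4 of 13 alternatives, among them edgeR with DESeq2 size factors and edgeR without the filter on low counts. DESeq2 called all 9 genes, beside 1421 of 11311 genes tested, and the fit with the 2 WT embryos alone called 1, Sox7, beside 27 genes in all. The Tfec call is lost without MUT embryo 3 (adjusted p = 0.0518), and Gata6 and Hnf4a pass without control embryo 6 (0.0477 and 0.0283) and Sox17 without MUT embryo 8 (0.00587). Against EPI sums, where no test was made, Gata6 and Pdgfra of the MUT embryos lay above every EPI sum, since those reached 3.73 and 4.07 CPM. Of the 12652 genes with a mean of 1 CPM or more, 13.3% lay above every EPI sum in both MUT embryos. The other 7 genes overlapped: Gata4 was 0 and 2.02 CPM against 0 to 0.87 CPM and Sox17 0.06 and 18.9 CPM against 0 to 10.6 CPM. Sox7, Foxa2, Hnf4a, Tfec and Gas6 were at 0 in MUT and in at least 1 EPI sum, and reached 7.96, 1.47, 10.1, 8.27 and 30.3 CPM in EPI.

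Single cells showed where the E4.5 MUT cells stood. Gata6 counts were in 14 of 19 cells and at 10 CPM or more in 9, and those 9 were all inside the range of PrE cells (28.9 to 368 CPM). Pdgfra was in 4 cells, at 577 and 171.8 CPM in embryo 3 and at 46.1 and 124 CPM in embryo 8. The cell at 577 CPM exceeded the highest PrE cell (491 CPM) and had no Gata6 or Nanog count. Sox17 was in 2 cells, at 0.77 CPM in embryo 3 and at 127 CPM in embryo 8, and the latter held 99.6% of the Sox17 counts of both embryos. Gata4 was in that same cell of embryo 8 alone, at 13.5 CPM, together with 173 CPM of Gata6, 46.1 CPM of Pdgfra and 114 CPM of Nanog. It was the only MUT cell with more than 2 of the 9 genes at this stage: 4 cells had none, 11 had 1, 3 had 2 and 1 had 4. PrE cells had 6 to 9 of the genes, with a median of 8, and EPI cells had 0 to 4, with a median of 1. Sox7, Foxa2, Hnf4a, Tfec and Gas6 were in 0 of 19 MUT cells, which allows a share of up to 15.8% of cells with a count by the same limit of 3 cells.

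**Figure D3:**
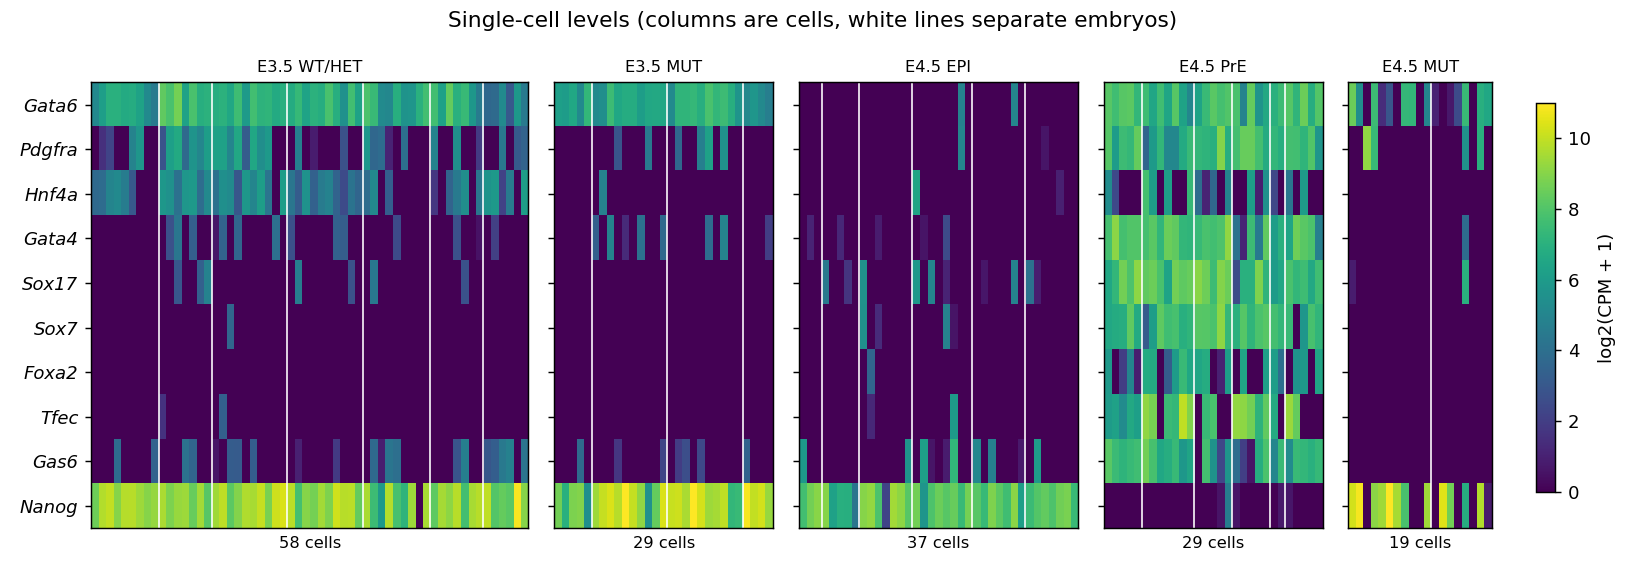
Log2(CPM + 1) of the 9 genes and Nanog (rows) in every cell (columns), by class, with white lines between embryos. PrE cells carry 6 to 9 of the genes and almost no Nanog, and the 19 E4.5 MUT cells carry Gata6 in 14 cells, Pdgfra in 4, Sox17 in 2 and Gata4 in 1.

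By detection of 1 count or more, cells at E3.5 had not sorted the genes into a strict sequence. Missed detection of genes with few counts was not tested. In controls every cell with Pdgfra, Hnf4a, Gata4, Sox17, Sox7, Tfec or Gas6 also had Gata6, as all 58 cells did. Of the 7 cells with Sox17, all 7 had Hnf4a and 5 had Pdgfra, and of the 14 cells with Gata4, 12 had Hnf4a and 9 had Pdgfra. Gata4 and Sox17 were found together in 1 cell, while 13 cells had Gata4 without Sox17 and 6 had Sox17 without Gata4. Both Tfec cells and the Sox7 cell had Pdgfra and Hnf4a, but no Sox17. At 10 CPM or more, 3 control cells had Sox17, all with Pdgfra and 0 with Gata4, and 3 of the 4 with Gata4 had Pdgfra. In E3.5 MUT cells 2 had Gata4 with Pdgfra, 6 had Gata4 without Pdgfra and 4 had Pdgfra without Gata4. The median number of the 9 genes per cell was 3 (1 to 5) in E3.5 controls and 2 (1 to 3) in E3.5 MUT cells. In PrE, by contrast, all 29 cells had Gata6, Pdgfra, Gata4 and Sox17 together. Sox7 and Gas6 were each missing in 1 cell, and Tfec, Foxa2 and Hnf4a varied more: 11 cells had both Foxa2 and Hnf4a, 10 had Foxa2 only, 5 Hnf4a only and 3 neither.

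Gata6 and Nanog were in the same cells at E3.5 in both genotypes. Both were detected in 57 of 58 control cells and in 29 of 29 MUT cells, and across cells their levels showed little relation (Spearman rho -0.03 over 58 control cells and 0.09 over 29 MUT cells, which share embryos and depth). At E4.5 they had parted in controls: at 10 CPM or more, 2 of 37 EPI cells had both, as did 1 of 29 PrE cells. In E4.5 MUT cells 7 of 19 had both at that level, 2 had Gata6 only and 5 had Nanog only. Nanog, the epiblast factor, was 653 and 386.2 CPM in MUT embryos 3 and 8. EPI sums had 143 to 437 CPM, so MUT embryo 8 lay inside the EPI range. Whole control ICMs had 49.8 to 241 CPM, and their PrE sums averaged 1.11 CPM. Of the 14105 genes tested, 12.1% were higher in both MUT embryos than in every whole ICM. The 9 MUT cells with Gata6 at 10 CPM or more had TE marker sums of 5455 to 26858 CPM and the 10 others 6589 to 22128 CPM, so both sets overlapped and lay above the highest PrE cell, 4678 CPM. Gata3 was counted in 8 of the 9 cells and Krt18 in 8, and Cdx2, a defining TE factor, in 2 of 9. The 10 others were alike, with Gata3 in 9, Krt18 in 9 and Cdx2 in 2. Of the 4 cells with Pdgfra, 3 had Gata3 and 2 had Krt18 counts.

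**Figure D4:**
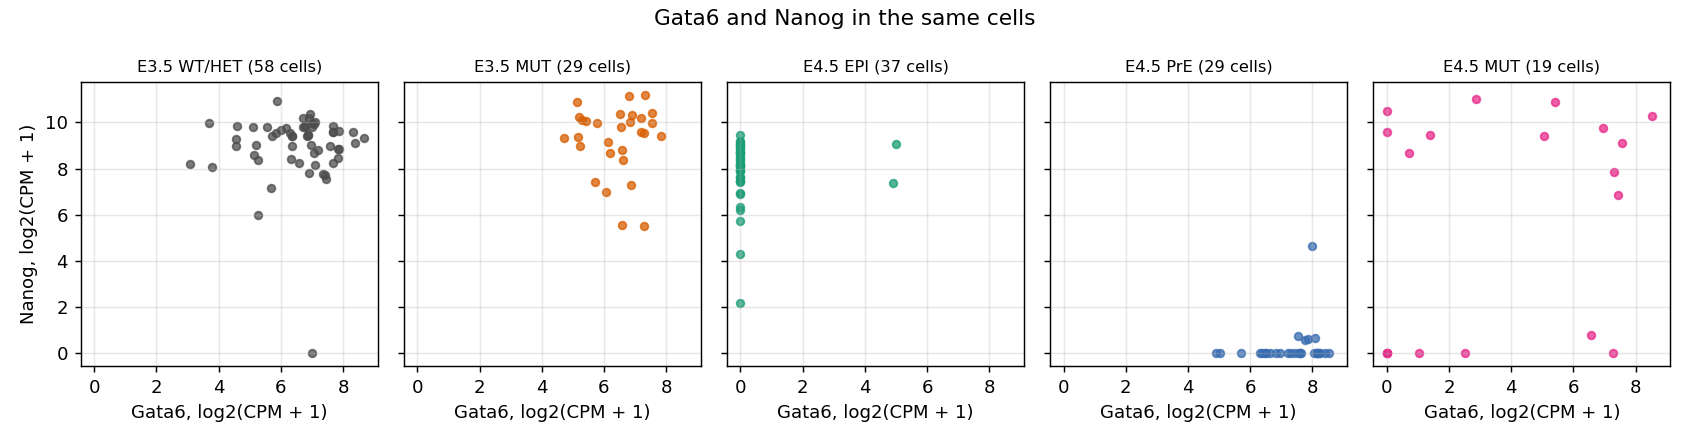
Gata6 (horizontal) against Nanog (vertical) in each cell, both as log2(CPM + 1), in the 5 classes; each point is a cell. E3.5 cells of both genotypes sit at upper right, EPI and PrE cells lie along the Nanog and the Gata6 axis, and 7 of 19 E4.5 MUT cells have both genes at 10 CPM or more.

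Within MUT embryos none of the 4 genes that could be tested between E3.5 and E4.5 was called (edgeR, 6.76% of the 12714 genes tested were called in either direction). Of them 1, Gas6, had an unadjusted p under 0.05, while DESeq2 called Gas6 lower (adjusted p = 0.0207) and limma-trend Gata6 lower (adjusted p = 0.0166). Both methods called more genes in all than edgeR here (counts in the last section), which also holds for the DESeq2 call of Sox17 below. Gata6 was 33.3 to 127 CPM and then 51.0 and 78.3 CPM (log2 fold change -0.55 ± 0.50, adjusted p = 0.524). Pdgfra was 0 to 13.8 CPM and then 20.9 and 71.9 CPM, without overlap, at 3.34 ± 1.78 (adjusted p = 0.262). A single cell of embryo 3 held 64.9% of its E4.5 MUT counts, and the ratio of shares of 10.4-fold was 4.32-fold without embryo 3 and 36.5-fold without embryo 17. Gas6 went from 48 counts in 4 embryos to 0, at least 10.9-fold lower (adjusted p = 0.0882), and Gata4 from 157 counts to 25 (adjusted p = 0.684). The Gas6 bound is 4.59-fold without MUT embryo 3 and 6.30-fold without MUT embryo 8. Sox17, not tested by edgeR, went from 0 counts in 4 embryos to 0.06 and 18.9 CPM, at least 116-fold higher with no overlap, as Pdgfra and 24.8% of all genes tested, and DESeq2 called it higher (adjusted p = 0.0128). A single cell of embryo 8 held 99.6% of its 236 counts, and without that embryo 1 count is left and no fold can be given. Hnf4a, also not tested, went from 27 counts, all in 1 cell of embryo 12, to 0. The difference between the stage changes of MUT and control ICMs was tested as an interaction for the 6 genes with a MUT count, and 2 were called, lower in MUT (2.75% of the 16410 genes tested were called lower). It was -7.73 ± 2.08 (log2, adjusted p = 0.0338) for Gata4 and -10.84 ± 2.03 (adjusted p = 0.00393) for Gas6. The Gata4 value was -6.69 without MUT embryo 3 and -14.50 without MUT embryo 8, where E4.5 MUT has no count and the size depends on the prior count. The Gata4 call is lost without embryos 2, 3 or 12 (adjusted p 0.05 to 0.157) and with the WT controls alone (0.314), and the Gas6 call with cells weighted equally (0.0519). For Pdgfra the interaction was 1.38 ± 1.53 (adjusted p = 0.698), for Gata6 -0.11 ± 0.73 (adjusted p = 1.00), for Sox17 4.09 ± 3.72 (adjusted p = 0.604) and for Hnf4a -5.14 ± 2.86 (adjusted p = 0.326). With limma-trend the Sox17 value turned negative and was called (adjusted p = 0.0189), and with an embryo left out it was -3.02 to 5.07. The Gata6 and Hnf4a values also turned in some alternatives, without a call. Sox7, Foxa2 and Tfec, at 0 in MUT at both stages, could not be fitted.

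Start-site sequence is shown for 2 of the late genes that were at 0 in both E4.5 MUT embryos, because each holds a short motif of a GATA or SOX factor among the 9 genes. Windows of 250 bases before an annotated start were available from RefSeq (GRCm38.p6) for 5 of the 9 genes, in 8 windows: Pdgfra, Foxa2, Hnf4a, Tfec and Gas6. The motif searched for GATA factors was AGATAA. For SOX factors it was either ACAAAG or the related ACAATG, for FOXA factors TGTTTAC and for HNF4 factors CAAAGTCCA. Both strands were searched, and matches did not overlap. The Foxa2 window, chr2:148045465-148045714 on the minus strand, lies in an intron of the longer Foxa2 transcripts and before the start of a shorter one. The Tfec window, chr6:16898442-16898691 on the minus strand, lies just before the gene. Both are written 5′ to 3′ in the direction of the gene, with motif matches in capitals.
Foxa2: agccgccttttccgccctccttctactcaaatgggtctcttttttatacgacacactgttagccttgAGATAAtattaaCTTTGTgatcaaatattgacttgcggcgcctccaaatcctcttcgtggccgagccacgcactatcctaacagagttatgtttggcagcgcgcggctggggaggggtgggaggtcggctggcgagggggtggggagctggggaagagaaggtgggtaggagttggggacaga
Tfec: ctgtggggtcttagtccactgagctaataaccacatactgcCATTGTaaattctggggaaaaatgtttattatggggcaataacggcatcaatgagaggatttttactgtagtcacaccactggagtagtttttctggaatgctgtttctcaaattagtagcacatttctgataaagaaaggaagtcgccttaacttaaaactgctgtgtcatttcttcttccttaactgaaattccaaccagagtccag
The Foxa2 window holds AGATAA at position -183 from the start and ACAAAG, on the opposite strand, at -171, and the Tfec window holds ACAATG, on the opposite strand, at -209. A window of Hnf4a holds AGATAA at -52. Among all 32851 windows of this length, 9.99% hold the GATA motif, 16.5% and 10.7% the first and the other SOX motif, 3.17% the FOXA motif and 0.38% the HNF4 motif. In the 8 windows of the 9 genes the same motifs were found in 2, 1, 1, 0 and 0, which is a description and not evidence of binding.

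The paralogues and binding partners of the 9 genes were taken as a list of 20 genes. At E3.5, 1 of 9 tested was called higher in MUT and none lower, beside 3.2% of all genes tested called higher: Gata3, a TE factor of the GATA family, at 156 CPM over the MUT cells against 10.8 CPM (log2 fold change 4.08 ± 0.73, adjusted p = 0.00694). At E4.5 against whole ICMs 3 of 12 were called higher, beside 3.1% of all genes tested, and 1 lower, beside 4.27%. In that comparison Gata3 was 227 against 2.58 CPM (6.35 ± 1.33, adjusted p = 0.0205) and Gata2, also a TE factor, 83.6 against 1.14 CPM (5.99 ± 1.46, adjusted p = 0.0378). Pros1, which encodes the other TAM receptor ligand beside GAS6, was 260 against 51.7 CPM (2.33 ± 0.38, adjusted p = 0.00738), and Mitf, a relative of Tfec, was at 0 in MUT against 10.1 CPM (adjusted p = 0.0200). Against PrE edgeR called 0 of 12, with 6 at an unadjusted p under 0.05, while limma-trend called 3 of 12 higher and DESeq2 2 of 10 higher and 2 lower. Over all genes edgeR called 466 of 12246 against PrE, limma-trend 1097 of 12246 and DESeq2 1421 of 11311. The medians of the list were 0.52 at E3.5 and 1.07 at E4.5 on the log2 scale, beside -0.02 and -0.10 over all genes tested. Pdgfa, the ligand of PDGFRA, whose values were seen before it was named here, averaged 38.8 CPM in E3.5 MUT and 26.4 CPM in E3.5 control embryos, and 116 CPM in E4.5 MUT embryos against 57.1 CPM in ICMs, and was not called at either stage (adjusted p = 0.405 and 0.256).

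Among 35 FGF and ERK signalling genes 5 of 31 tested were called lower in E3.5 MUT and none higher, beside 2.98% and 3.2% of all genes tested. They include Fgf4, the ligand that induces PrE, at 3.402 against 42.4 CPM (log2 fold change -3.79 ± 0.90, adjusted p = 0.0270), the ERK-responsive gene Etv5 at 13.7 against 79.7 CPM (-2.44 ± 0.57, adjusted p = 0.0266), and Spry2, a feedback inhibitor, at 149 against 285 CPM (-0.81 ± 0.20, adjusted p = 0.0319). At E4.5 against whole ICMs 3 of 34 were called lower, Etv5, Etv1 and Etv4, and 1 higher, Fgfr2, an FGF receptor of PrE and TE, at 156 against 18.2 CPM (3.11 ± 0.51, adjusted p = 0.00762). Of all genes tested 4.27% were called lower and 3.1% higher there, so the count of higher calls in the list is near that background. Against PrE 1 of 33 was called, Fgfr2, higher at 156 against 37.4 CPM (adjusted p = 0.0166). Of all genes tested 1.74% were called higher and 2.07% lower against PrE, so this count is near that background. Etv5 averaged 25.8 CPM in E4.5 MUT embryos, 25.5 CPM in PrE and 311 CPM in EPI, while Dusp6 averaged 85.2, 15.2 and 78.0 CPM. Between the MUT stages 3 of 30 tested genes were called higher and 0 lower, beside 3.08% and 3.69% of all genes tested. List medians were -0.17 at E3.5, -0.63 against whole ICMs and -0.32 against PrE, beside -0.02, -0.10 and 0.05 over all genes tested.

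Of 35 other PrE genes 18 were tested at E3.5, with 4 called higher in MUT, beside 3.2% of all genes tested, and 1 lower, beside 2.98% (median 1.06, beside -0.02 over all genes tested). The higher ones include the basement membrane collagens Col4a1 at 67.5 against 17.7 CPM (log2 fold change 2.11 ± 0.30, adjusted p = 0.00268) and Col4a2 at 40.8 against 16.3 CPM (1.42 ± 0.24, adjusted p = 0.00551), and the endocytic adaptor Dab2 at 253 against 48.5 CPM (2.69 ± 0.47, adjusted p = 0.00661). At E4.5 against whole ICMs 8 of 29 were called lower and 2 higher (median -1.99, beside -0.10; 4.27% of all genes tested were called lower and 3.1% higher), and against PrE 12 of 28 lower and 1 higher (median -2.91, beside 0.05; 2.07% of all genes tested were called lower and 1.74% higher). The laminin chain genes Lama1 and Lamc1 were at 69.7 CPM in MUT against 533 CPM in ICMs and 111 CPM against 433 CPM (both adjusted p = 0.00740). Pdpn was higher, at 522 against 90.0 CPM (2.62 ± 0.29, adjusted p = 0.00136). At E3.5 it was the 1 gene called lower, at 64.9 against 162 CPM (-1.21 ± 0.28, adjusted p = 0.0224). In control ICMs 21 of 25 tested genes of this list were called higher at E4.5 than at E3.5, beside 18.4% of all genes tested in controls. In MUT 5 of 22 were called higher, beside 3.08% of all genes tested in MUT, among them Sparc at 831 against 1.90 CPM (8.83 ± 1.00, adjusted p = 0.0105) and Apoe at 1255 against 41.7 CPM (4.75 ± 0.29, adjusted p = 0.00208). Sparc averaged 455 CPM in EPI and 2970 CPM in PrE sums, against 10.7 CPM in E3.5 controls, so a higher level at E4.5 was not limited to PrE. The levels of the list in MUT embryos, 4588 and 5365 CPM at E4.5, were below the lowest PrE sum of 12621 CPM and above the EPI sums of 2462 to 3089 CPM. Whole control ICMs had 4606 to 13426 CPM, so 1 MUT embryo lay inside that range and the other just below it.

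The 9 genes did not share a single profile. Over 25 sums (11 E3.5 embryos, 6 EPI, 6 PrE and 2 E4.5 MUT), which share embryos and lineage labels, Pearson's r of log2(CPM + 1) was 0.96 between Sox7 and Tfec, 0.92 between Gata4 and Tfec, Gata4 and Sox7, and Sox17 and Sox7, and 0.75 between Gata6 and Pdgfra. Gata6 had r of 0.58 with Gata4, 0.41 with Tfec, 0.36 with Sox7 and 0.30 with Sox17, and Hnf4a at most 0.57 with any of the others. Among 7818 genes with a mean of 10 CPM or more, those most like Gata6 were Eva1a (0.94), Rnpepl1 (0.93) and Cgrrf1 (0.91). Those most like Gata4 were Pla2g12b, Stra6 and Cdh6 (0.96 to 0.95), those most like Sox17 were Bend5, Rcn1 and Gdpd5 (0.93 to 0.92), and those most like Sox7 were Bend5, Bmper and Stra6 (0.97 to 0.96). Pdgfra was most like Serpine2, Cubn and Ubash3b (0.87 to 0.86), Tfec most like Sox7, Cdh6 and Pla2g12b (0.96 to 0.95), Gas6 most like Amn, Sox7 and Tfec (0.86 to 0.84) and Hnf4a most like Zfp800, Asph and Tmem263 (0.73 to 0.71). Foxa2 had a mean below 10 CPM and was not compared.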

How the data were processed

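Smart-seq2 libraries of 172 single ICM cells were analysed. The authors aligned read pairs with STAR to mm10 and counted them per Ensembl gene with HTSeq, per the submitters' notes; the values are deposited counts, not normalized. Read pairs in no gene (4.72%), ambiguous (8.65%) or not uniquely aligned (32.3%) stayed out of library sizes, and the authors had removed inadequate cells. The median share not uniquely aligned was 38.8% and 41.1% in E3.5 control and MUT cells. In E4.5 EPI, PrE and MUT cells it was 24.9%, 19.7% and 22.0%. Median genes detected were 9397.5 and 8890, and then 6965, 7169 and 6514, so both measures moved with stage. The sources used here give no stranded counting, and Gata6 shares its locus with the antisense gene 1010001N08Rik (1284 counts against 25014), so reads of overlapping genes may be lost or mixed. Symbols, coordinates and exon lengths came from GENCODE (GRCm38).

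Counts were summed per embryo, the replicate, and at E4.5 also per EPI and PrE cells, which pair by embryo (correlations of deviations 0.00803 to 0.0665). Genes passing filterByExpr were tested with edgeR 4.0.16 (quasi-likelihood, TMM, Benjamini-Hochberg, threshold 0.05; R 4.3.3). CPM and FPKM use counts in genes without TMM. Scripts were tested on simulated data. Alternatives were DESeq2 1.42.0, its size factors, no filter, limma 3.58.1, WT controls only, each embryo left out, and other detection thresholds (5 counts, 1 CPM, 10 CPM, thinned cells, with 9 shallow cells left out).

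The members and lists were chosen with earlier results of these data known. All 9 members are described in every comparison. Among called genes of other lists, those with the 4 smallest adjusted p were eligible to be named. Genes most like a member are its 3 highest correlations.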

Additional observations from a re-analysis of the deposited data

Results flagged for a closer look

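Some single embryos stood apart from the rest of their group by the gap to the nearest embryo, in 12 cases among 40 groups checked. The rate of about 1 in 20 set for this rule does not apply here. Some groups had counts in a single embryo, and the whole ICM sums hold the PrE and EPI cells. Among EPI sums, embryo 5 was highest for Gata4 (0.87 CPM), Pdgfra (4.07 CPM), Hnf4a (10.1 CPM) and Tfec (8.27 CPM), and embryo 4 for Foxa2 (1.47 CPM). Embryo 2 was highest for Hnf4a in PrE (75.4 CPM) and in the whole ICM (49.2 CPM), and for Foxa2 in the whole ICM (52.0 CPM). At E3.5, control embryo 11 was highest for Sox17 (7.39 CPM), control embryo 13 for Sox7 (0.81 CPM) and Tfec (1.39 CPM), and MUT embryo 12 for Hnf4a (1.91 CPM), from a single cell.

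The change between stages differed between MUT and control ICMs for Gata4 (log2 difference -7.73) and Gas6 (-10.84) by the interaction test of edgeR. Gas6 had 0 MUT counts at E4.5, so the size of its difference depends on the prior count.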

How the results depend on the processing

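For E3.5 MUT against WT/HET, E4.5 MUT against whole WT/HET ICM, E4.5 MUT against PrE, MUT E4.5 against E3.5, and the difference of the stage changes, MUT against WT/HET ICM, in this order, 746, 1039, 466, 860 and 896 genes were called, DESeq2 called 1834, 2736, 1421, 3064 and 1969, limma-trend with cells weighted equally 1353, 1770, 1097, 2247 and 1445 (6383 against 4240 for the control stage change), and WT controls alone 435, 25, 27 and 470 (not run for the MUT stage). Of the 9 genes, DESeq2 called 2 at E3.5, 9 against PrE and 2 between MUT stages, limma-trend 8 against PrE and 1 between MUT stages, and WT controls alone 0 at E4.5, 1 against PrE and 1 in the interaction. Beside the 2 DESeq2 calls at E3.5 and the 2 between MUT stages stand 1834 and 3064 genes in all. Their share of the genes tested is not given here, so these calls are not read as a result about the 9 genes. Leaving out an embryo gave 482 to 882 genes at E3.5, 524 to 1061 against whole ICMs with 2 to 6 of the 9 genes, 169 to 534 against PrE, 33 to 516 between MUT stages and 562 to 1015 in the interaction with 1 to 2 of the 9 genes; where 1 MUT embryo is left, its spread is taken from the other group. The lowest counts came without MUT embryo 3, except at E3.5 (482 without control embryo 14, 497 without MUT embryo 10). Against PrE 304 genes were called without control embryo 2 and 253 without MUT embryo 8, and between MUT stages 208 without embryo 8 and 129 without embryo 17. The cause was not tested.

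Differences that turned were not called by edgeR with all embryos. Gata4 at E3.5 was -0.048 to 1.37 with an embryo left out, Gata6 at E4.5 was 0.24 with limma-trend and 0.55 with WT controls alone, and in the interaction Gata6 was 0.49 and 0.81 in the same fits and -0.45 to 0.18 with an embryo left out, Sox17 -2.91 with limma-trend (adjusted p = 0.0189) and -3.02 to 5.07, and Hnf4a 2.24 with limma-trend and -5.56 to 0.86. With embryo as a replicate block the PrE minus EPI log2 difference was 8.77 for Gata6 against 7.44, 10.01 for Pdgfra against 7.87, 9.44 for Tfec against 7.14, 9.73 for Foxa2 against 7.29, 8.34 for Sox7 against 6.40 and 7.79 for Hnf4a against 3.85; all 9 kept their sign. Without embryo 5 the EPI sums held 1 count of Hnf4a, 3 of Gata4, 1 of Pdgfra and 2 of Tfec, and without embryo 4 they held 0 of Foxa2. The unpaired values rose in these fits, but their sizes rest on so few counts that none is given. At 10 CPM 8 of 45 shares of detected cells moved beyond their interval, at 5 counts 1, and after thinning 1 (Sox7 in E3.5 controls, to 0).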
